A study of Mus musculus with 6 samples.

Results

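Genomic imprinting leaves a gene active on the copy from only one parent, and the parental copies of an imprinting control region carry opposite DNA methylation. The loci described here are H19, Meg3, Rasgrf1 and the Gnas complex, as measured in mouse colon epithelial cells by bisulfite sequencing of captured DNA. After bisulfite treatment, unmethylated cytosines are read as thymines while methylated ones still read as cytosines, and a region's methylation level, in percent, is how much of its calls were methylated. The members are all regions of the deposited files that overlap a fixed window of build mm9 around each locus. The windows were chromosome 7 from 149760000 to 149770000 for H19 and its control region, and chromosome 12 from 110762000 to 110812000 for Meg3 and the control region upstream of it. They were chromosome 9 from 89765000 to 89785000 for the region upstream of Rasgrf1, and chromosome 2 from 174105000 to 174160000 for Gnas with its antisense gene Nespas and exon 1A. Of 209687 regions, 74 are members: 9 at H19, 29 at Meg3, 36 at Gnas and 0 at Rasgrf1. A value in all 6 libraries was present for 60 of them, 9 at H19, 21 at Meg3 and 30 at Gnas, against 179922 regions in the whole series. The regions nearest to the Rasgrf1 window lie 1607 bases below it and 10152 bases above it, and Rasgrf1 was not analysed here.

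All groups were C57BL/6 mice, an inbred laboratory strain, at 18 weeks of age, with 2 libraries per group and 6 in all. The AOM/DSS plus curcumin group received azoxymethane (AOM), a colon carcinogen, dextran sulfate sodium (DSS), which inflames the colon, and curcumin, a polyphenol of turmeric. The AOM/DSS group received the carcinogen and DSS without curcumin, and the control group received neither. The sources used here state no doses. The proximal segment and tumors were taken out before the mucosa was scraped off, spun at low speed and washed to lower the share of blood cells, per the labels' protocols. The preparations were not checked against cell type markers, since the assay measures DNA and the regions were not tied to genes. In bulk DNA, a change in the mix of cells and a change of methylation within cells cannot be told apart. Whether a group's libraries stem from different mice is not stated. All p-values but those of Fisher's exact test rest on the spread between these libraries, which may be technical. Total calls per library ran from 24682973 to 30727568, and tested members had a median of 141.5 calls against 106.5 for all tested regions. Per CpG the median was lower in members, at 12.3 calls against 14.8. Members had a median of 10 CpGs against 7. All levels are means over both parental copies, which these values do not separate.

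H19 is a maternally expressed noncoding RNA, and its control region upstream is methylated on the paternal copy, where it keeps the insulator protein CTCF from binding and lets Igf2 be expressed. Meg3 is a maternally expressed noncoding RNA whose intergenic control region, in the mouse, carries methylation on the paternal copy, as does the Meg3 promoter in somatic tissue. Rasgrf1, an exchange factor that activates Ras, is expressed from the paternal copy in the mouse and has a paternally methylated region upstream. Gnas encodes the stimulatory G protein alpha subunit, which couples receptors to adenylyl cyclase. Its complex also has alternative first exons. The Nesp promoter is methylated on the paternal copy, the Nespas, Gnasxl and exon 1A promoters on the maternal copy, and the promoter of Gnas exon 1 on neither.

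The bases that the assay reads are the CpGs, shown in capitals in promoter sequences of both genes that have several tested regions and an entry in the RefSeq promoter table (build GRCm38.p6, plus strand). Each holds the 250 bases before a start site, written 5′ to 3′. They are not placed on the mm9 regions, since that would need a conversion between builds. The motif searched was CG, which reads the same on both strands, and 92.1% of the 32841 promoter windows of this length hold at least 1. Meg3 had 10 CpGs in its first window, a number reached by 37.8% of windows, and 0 in the window of its other listed start. Gnas had 14, 21 and 29 CpGs in the 3 windows shown, numbers reached by 29.4%, 16.4% and 6.78% of windows. A further listed Gnas start, whose window overlaps the middle one, had 22.
Meg3, chr12:109540746-109540995: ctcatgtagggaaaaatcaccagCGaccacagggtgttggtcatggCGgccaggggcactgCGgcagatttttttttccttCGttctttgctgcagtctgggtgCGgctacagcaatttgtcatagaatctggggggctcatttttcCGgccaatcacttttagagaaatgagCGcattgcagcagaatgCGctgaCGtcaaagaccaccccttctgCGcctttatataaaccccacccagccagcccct
Gnas, chr2:174284070-174284319: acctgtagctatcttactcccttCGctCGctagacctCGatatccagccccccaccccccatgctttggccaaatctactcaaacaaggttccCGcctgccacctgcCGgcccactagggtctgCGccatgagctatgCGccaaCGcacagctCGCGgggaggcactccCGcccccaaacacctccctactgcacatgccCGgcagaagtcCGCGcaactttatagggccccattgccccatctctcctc
Gnas, chr2:174327499-174327748: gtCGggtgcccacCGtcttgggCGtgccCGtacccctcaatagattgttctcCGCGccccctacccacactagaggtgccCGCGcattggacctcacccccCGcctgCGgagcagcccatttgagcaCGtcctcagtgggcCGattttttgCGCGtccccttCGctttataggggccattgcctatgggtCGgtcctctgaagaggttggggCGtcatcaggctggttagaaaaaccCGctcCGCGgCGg
Gnas, chr2:174329756-174330005: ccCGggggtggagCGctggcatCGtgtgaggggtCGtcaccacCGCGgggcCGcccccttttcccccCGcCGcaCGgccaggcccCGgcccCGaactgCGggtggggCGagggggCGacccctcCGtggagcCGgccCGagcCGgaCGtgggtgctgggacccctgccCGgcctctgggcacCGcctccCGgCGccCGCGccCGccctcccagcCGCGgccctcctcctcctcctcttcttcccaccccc

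Intermediate methylation was common at the H19 and Gnas loci and less so at Meg3. Of the 60 tested members, 35 (58.3%) averaged 30 to 70% over the 6 libraries, against 36730 of 179922 tested regions (20.4%). At H19 these were 8 of 9 regions (88.9%), at Gnas 19 of 30 (63.3%) and at Meg3 8 of 21 (38.1%). The remaining members were 13 regions below 30%, 5 of them below 10%, and 12 regions at 70% or more, 5 of them at 90% or more. These shares carry no test, because the regions of a locus are neighbours.

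**Figure D1:**
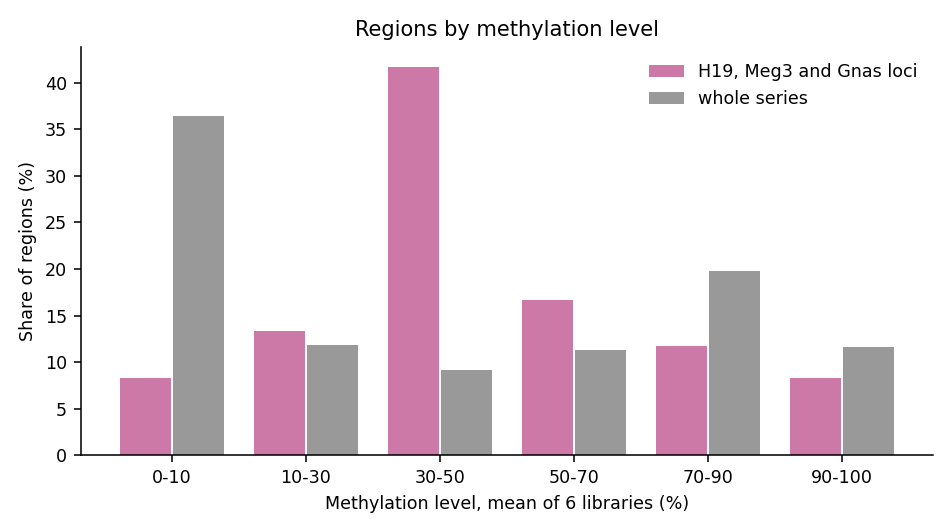
Share of regions, in percent, by mean methylation level over the 6 libraries, for the 60 tested members of the H19, Meg3 and Gnas loci and for all 179922 tested regions. The class from 30 to 50% holds 41.7% of the members and 9.13% of all tested regions, and the class below 10% holds 8.33% and 36.4%.

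Members with many CpGs were partly methylated. Over all tested regions, those with many CpGs were nearly all unmethylated in this tissue: of 8178 tested regions with at least 30 CpGs, 94.6% averaged under 10%, and 199 (2.43%) averaged 20 to 70%, a wider class than the 30 to 70% above, or 1.39% at 30 to 70%. The 5 members with that many CpGs, all at Gnas, averaged from 23.5% to 35.9%, and 2 of them lay at 30 to 70%. At 20 or more CpGs there were 11 members, all between 23.5% and 69.1% and 6 of them at 30 to 70%. Of all 22955 such regions, 3.75% averaged 20 to 70%, 2.47% averaged 30 to 70% and 89.4% averaged under 10%. These limits on the number of CpGs and the wider class were chosen after the levels had been seen, and the counts are given as a description.

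Over the regions at 30 to 70%, Gnas was lowest, H19 next and Meg3 highest in each of the 6 libraries. The Gnas means over 19 regions were 42.4% and 37.1% in AOM/DSS plus curcumin, 36.9% and 39.0% in AOM/DSS, and 39.9% and 36.0% in control. The H19 means over 8 regions were 49.7% and 46.8% in AOM/DSS plus curcumin, 48.9% and 47.8% in AOM/DSS, and 56.2% and 46.0% in control. The Meg3 means over 8 regions were 59.4% and 56.0%, 57.4% and 54.9%, and 58.4% and 56.9% in the same order of groups. The groups overlapped at each of these loci in all 3 comparisons.

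**Figure D2:**
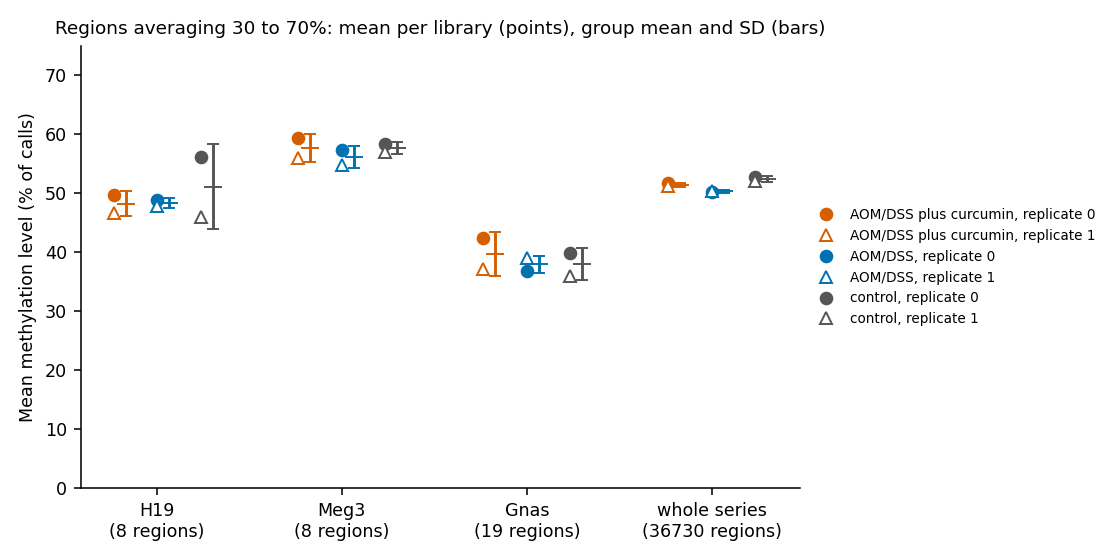
Mean methylation level, in percent of calls, over the regions averaging 30 to 70%, with 1 point per library and bars for the group mean and SD (n = 2), at H19, Meg3 and Gnas and over all such tested regions (members included). Gnas lies between 36.0% and 42.4%, H19 between 46.0% and 56.2% and Meg3 between 54.9% and 59.4%.

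At H19 the 9 regions span chromosome 7 from 149762402 to 149766998. H19 is read on the minus strand, so higher coordinates lie upstream of the gene. The first 5 regions by coordinate averaged 60.6% ± 3.76 in AOM/DSS plus curcumin, 58.8% ± 2.13 in AOM/DSS, and 63.7% ± 0.434 in the control group (SD, n = 2 each). The other 4, from 149766034 to 149766998, averaged 38.7% ± 0.907, 41.7% ± 2.01 and 40.8% ± 14.6 in the same order of groups. The split at that point was chosen after the levels had been seen. In control the wide spread of the other 4 came from libraries at 51.1% in replicate 0 and 30.5% in replicate 1.

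The highest H19 region, from 149762402 to 149762607 with 6 CpGs, stood at 71.0% and 73.3% in AOM/DSS plus curcumin, 67.4% and 80% in AOM/DSS, and 71.3% and 73.5% in control. The lowest, from 149766034 to 149766297 with 14 CpGs, stood at 19.6% and 38.9% in AOM/DSS plus curcumin, 46.1% and 34.8% in AOM/DSS, and 43.6% and 21.9% in control. All 3 groups overlapped in both regions. The region from 149763740 to 149764056, with 13 CpGs, averaged 47.3% ± 16.2 in AOM/DSS plus curcumin, 45.5% ± 2.59 in AOM/DSS, and 46.4% ± 3.18 in the control group (SD, n = 2 each). Its AOM/DSS plus curcumin libraries, at 58.8% and 35.8%, enclosed the other 4. At the 2 regions not named, from 149763413 and from 149766405, levels ran from 57.6% to 68.7% and from 38.2% to 55.6% over the 6 libraries.

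**Figure D3:**
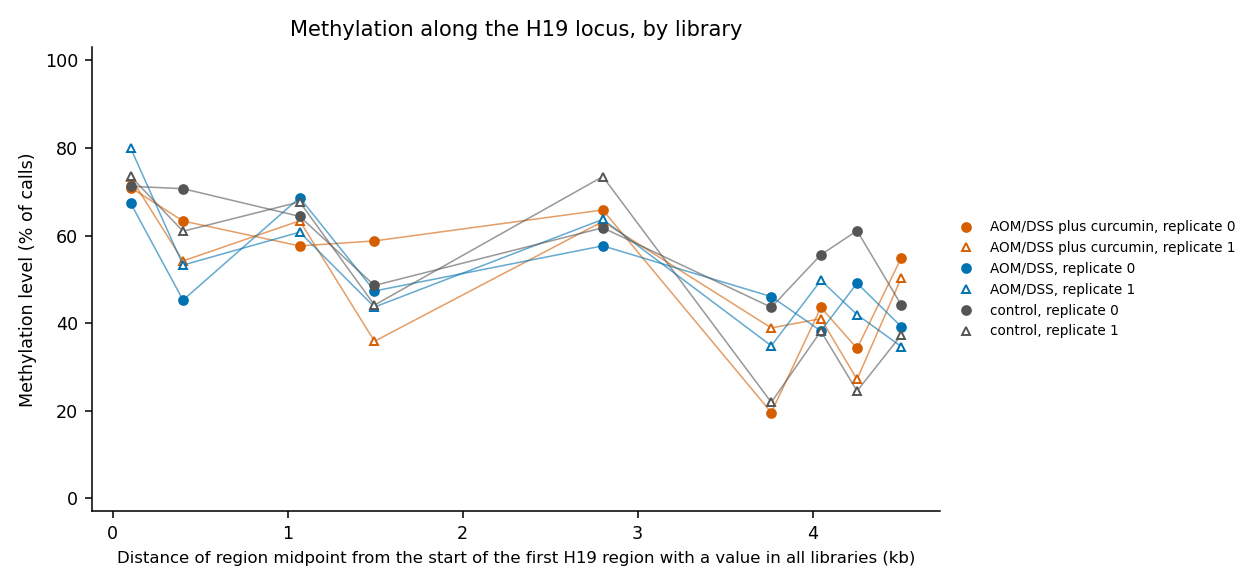
Methylation level, in percent of calls, of the 9 H19 regions in each of the 6 libraries, against the distance of the region's midpoint from the start of the first region in kb. The first 5 regions lie mostly above the other 4, and the libraries of a group are up to 36.6 points apart.

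At Meg3 the 21 tested regions fall into 4 stretches, taken as regions at most 2000 bases from the next one. The first stretch, from 110763840 to 110770044, was not at an intermediate level. After 2 low regions, at 5.46% and 14.05% over the 6 libraries, the level stepped up by 81.5 points within 451 bases, between 110764550 and 110765001. The next 6 tested regions, from 110765001 to 110769432, averaged 92.4% ± 1.15 in AOM/DSS plus curcumin, 90.4% ± 0.925 in AOM/DSS, and 94.1% ± 0.134 in the control group (SD, n = 2 each). The last, from 110769888 to 110770044, averaged 26.3% over the 6 libraries, a step of -69.4 points over 456 bases. The smallest of these 2 steps in any library was 61.6 points in size, so the pattern was present in all 6. These levels do not separate the parental copies, and the state of each copy was not tested. None of these 9 regions averaged 30 to 70% over the 6 libraries. Which of them belong to the intergenic control region was not determined here.

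The second stretch of Meg3, from 110777060 to 110781316, had a step of -31.0 points within 106 bases, before the region from 110778783, a split chosen after the levels had been seen. The first 4 regions, whose own means ran from 68.2% to 95.1%, averaged 82.6% ± 0.762 in AOM/DSS plus curcumin, 83.3% ± 0.423 in AOM/DSS, and 83.1% ± 0.0534 in the control group (SD, n = 2 each). The following 5 averaged 52.0% ± 0.0794, 49.9% ± 5.07 and 48.7% ± 2.69 in the same order of groups. The one with the most CpGs, from 110778783 to 110779242 with 19 CpGs and 317 to 532 calls, stood at 47.4% and 46.8% in AOM/DSS plus curcumin, 44.6% and 47.6% in AOM/DSS, and 43.1% and 42.6% in control. Both control libraries were below the other 4 there, by 3.26 points on average against AOM/DSS, and the region was not called. The region beside it, from 110779280 to 110779724 with 17 CpGs, ran from 31.0% to 40.5% over the 6 libraries. Farther along, the region from 110784400 to 110784893 with 24 CpGs stood at 74.5% and 54.7% in AOM/DSS plus curcumin, 71.8% and 74.1% in AOM/DSS, and 73.7% and 66.1% in control. The highest region of the locus, from 110767055 to 110767085 with 3 CpGs, ran from 93.1% to 98.4%, and the lowest, from 110763840 to 110764146, from 1.65% to 8.47%.

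**Figure D4:**
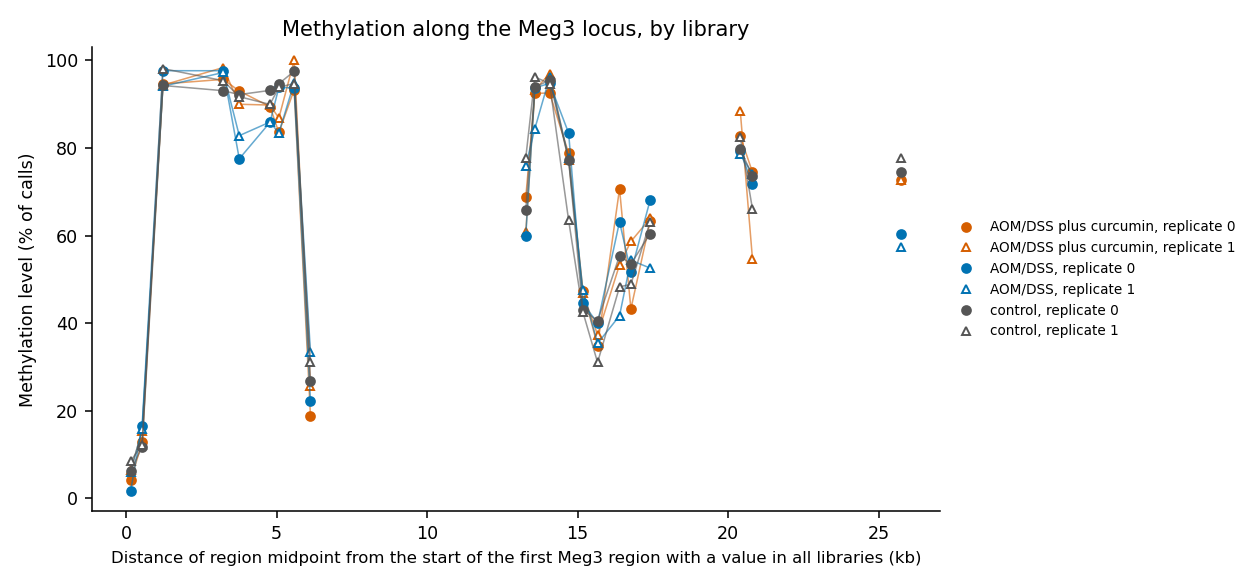
Methylation level, in percent of calls, of the 21 tested Meg3 regions in each of the 6 libraries, against the distance of the region's midpoint from the start of the first tested region in kb, with lines joining the regions of a stretch. The level steps up by 81.5 points after the first 2 regions in the mean of the 6 libraries, and 5 neighbouring regions of the second stretch lie between 31.0% and 70.7%.

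At Gnas the 30 tested regions fall into 5 stretches on chromosome 2. The first, 11 regions from 174108708 to 174115215, averaged 45.4% ± 1.44 in AOM/DSS plus curcumin, 37.8% ± 0.333 in AOM/DSS, and 39.8% ± 0.993 in the control group (SD, n = 2 each). The second, 9 regions from 174120527 to 174126511, averaged 37.8% ± 5.10, 37.7% ± 0.448 and 38.3% ± 4.45 in the same order of groups. The third is a single region from 174136523 to 174136664, which ran from 1.28% to 10.8%. The fourth, 8 regions from 174151880 to 174156440, averaged 20.4% ± 1.68, 20.2% ± 0.0148 and 19.2% ± 0.684. The fifth is the region from 174159691 to 174159855, with 3 CpGs.

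The fourth Gnas stretch joined partly methylated regions and regions of low level. Of its tested regions, only those from 174152432 and 174153190 averaged 30 to 70% over the 6 libraries. The regions from 174152732, 174153770 and 174154497 averaged 24.8%, 26.9% and 25.9%, below that class. The first region of the stretch, from 174151880, averaged 8.40% over the 6 libraries, and the next, 130 bases away, averaged 39.05%. The 5 regions from 174152432 to 174154861, with 130 CpGs in all, averaged 30.6% ± 3.15 in AOM/DSS plus curcumin, 30.6% ± 0.769 in AOM/DSS, and 28.0% ± 0.247 in the control group (SD, n = 2 each). The next region, 283 bases on and from 174155144 to 174155184, stood between 0% and 4.65%. Its 3 libraries at 0%, both of AOM/DSS plus curcumin and 1 of AOM/DSS, had 21, 34 and 46 calls, which allow up to 14.3%, 8.82% and 6.52%. The lowest tested region of the locus lay from 174156318 to 174156440 and had 9 CpGs. It stood at 2.38% and 1.75% in AOM/DSS plus curcumin, 1.49% and 0% in AOM/DSS, and 1.61% and 0% in control. The 0% of AOM/DSS replicate 1 rests on 39 calls and allows a level of up to 7.69%, and that of control replicate 1 on 33 calls, allowing up to 9.09%. These limits, taken as 3 calls of the total, cover counting error only, and calls from the same read are not independent.

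Among the Gnas regions at 30 to 70% with the most CpGs, the one from 174125309 to 174125791 with 38 CpGs stood at 40.7% and 24.2% in AOM/DSS plus curcumin, 30.6% and 45.8% in AOM/DSS, and 48.7% and 25.4% in control. The region from 174153190 to 174153529 with 35 CpGs stood at 28.4% and 31.0%, 36.1% and 21.9%, and 36.6% and 37.3% in the same order of groups. The region from 174124472 to 174124856 with 28 CpGs stood at 28.7% and 31.9%, 51.5% and 26.6%, and 35.5% and 31.1%. In each of these, the libraries of at least 1 group were over 10 points apart. The highest region of the locus, from 174115109 to 174115215 with 3 CpGs, stood at 85.2% and 78.9% in AOM/DSS plus curcumin, 76.8% and 75.2% in AOM/DSS, and 75.4% and 77.0% in control.

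**Figure D5:**
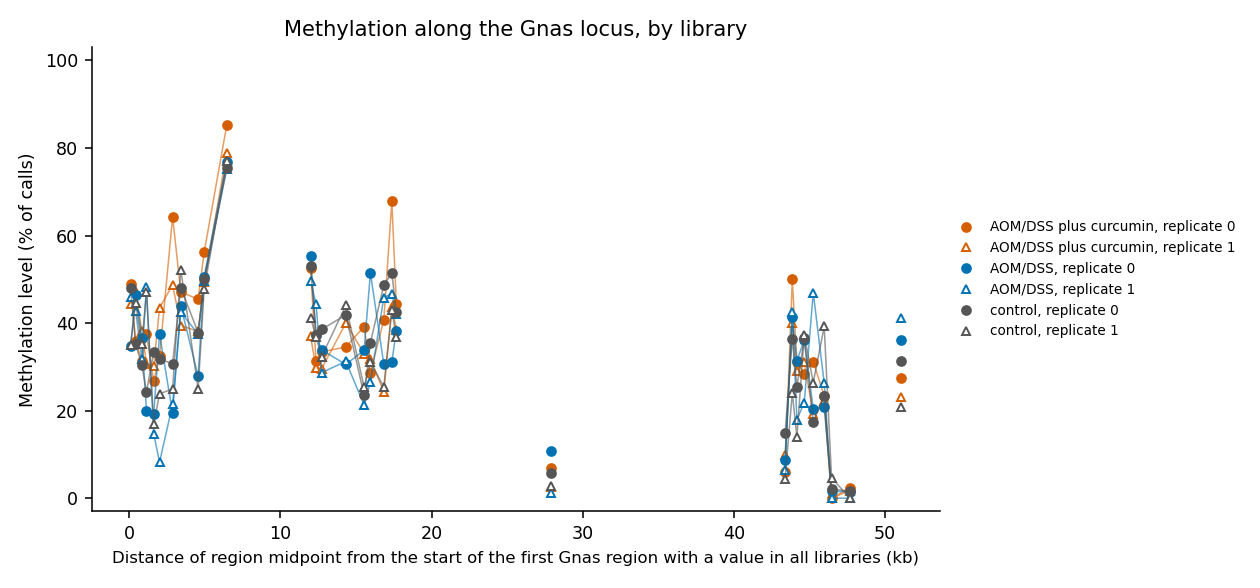
Methylation level, in percent of calls, of the 30 tested Gnas regions in each of the 6 libraries, against the distance of the region's midpoint from the start of the first tested region in kb, with lines joining the regions of a stretch. Region means run from 23.5% to 78.1% in the first stretch and from 29.35% to 48.1% in the second, the single region of the third averages 4.99%, and the fourth stretch ends at 1.39% and 1.21%.

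The comparison of AOM/DSS with control asks what the carcinogen and colitis left at these loci. No member was called: 0 of 60 had an edgeR adjusted p under 0.05 with group means at least 10 percentage points apart, where 7 of all 179922 tested regions did (0.00389%). P-values were adjusted over all tested regions, and the smallest adjusted p of a member was 0.678 in edgeR. With an unadjusted p below 0.05 there were 4 members, against 6.34% of all tested regions: 4 were lower in AOM/DSS and 0 higher, against 3.62% and 2.73%. The quasi-binomial model and limma also called 0 members, and Fisher's exact test on calls summed per group called 4 without using the spread between libraries. The share of all tested regions that Fisher's exact test called is not given here, so this count is not read as an excess. The groups did not overlap in 13 members lower and 6 higher in AOM/DSS, against 20.8% and 14.8% of all tested regions. The median difference over members was -0.591 points, against -0.264 points over all tested regions. At the 35 members between 30 and 70%, 6 were lower and 3 higher without overlap, against 25.2% and 12.1% of all tested regions at that level, and the median difference was 0.511 points against -2.04 points. The number with an unadjusted p below 0.05 rose without control replicate 0. The share of all tested regions in that fit is not given here.

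Of the 4 members with an unadjusted p below 0.05, all lower in AOM/DSS, 3 lie at Meg3 and 1 at H19. The Meg3 region from 110767461 to 110767742, with 7 CpGs, stood at 77.5% and 82.8% in AOM/DSS, against 92.2% and 91.7% in control. The difference was -11.8 points, with an edgeR adjusted p = 0.678. The Meg3 region from 110789462 to 110789713, with 4 CpGs, stood at 60.2% and 57.4% in AOM/DSS, against 74.4% and 77.8% in control, a difference of -17.3 points (edgeR adjusted p = 0.688). The Meg3 region from 110768486 to 110768757, with 11 CpGs, stood at 85.9% in both AOM/DSS libraries, against 93.2% and 90% in control (edgeR adjusted p = 0.778). The H19 region from 149762691 to 149762917, with 15 CpGs, stood at 45.3% and 53.3% in AOM/DSS, against 70.7% and 61.0% in control, a difference of -16.6 points (edgeR adjusted p = 0.733). In all 4 the AOM/DSS libraries lay below the control libraries, and none passed the adjusted test. The 4 were picked by their p in these same libraries, so the lack of overlap adds no support.

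The other H19 regions with the smallest p were farther from the threshold. The region from 149766034 differed by 7.68 points (edgeR adjusted p = 0.891) and the region from 149765097 by -6.96 points (edgeR adjusted p = 0.904). Without control replicate 1 the difference at 149766034 was -3.17 points and that at 149765097 was -1.11 points. Without control replicate 0 they were 18.5 and -12.8 points. At Gnas no region had an unadjusted p below 0.05, and the region of smallest p, from 174159691, stood at 36.2% and 41.1% in AOM/DSS, against 31.3% and 20.9% in control, a difference of 12.5 points that was 7.31 points without control replicate 1. The Gnas region from 174110149 to 174110513, with 30 CpGs, differed by -8.25 points, or 0.00926 points without control replicate 0. The Gnas region from 174122957 to 174123123 stood at 30.6% and 31.2% in AOM/DSS, against 41.9% and 44.0% in control. These 3 had an edgeR adjusted p = 0.824.

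As a mean over all its tested regions, H19 stood at 51.2% ± 0.291 in AOM/DSS, and 53.5% ± 6.25 in the control group (SD, n = 2 each), a difference of -2.30 points that was 2.12 points without control replicate 0. Meg3 stood at 65.9% ± 0.938 in AOM/DSS and 67.4% ± 0.498 in control, a difference of -1.53 points. Gnas stood at 32.05% ± 0.117 in AOM/DSS and 32.2% ± 2.20 in control, a difference of -0.150 points. With 2 libraries against 2, the exact two-sided permutation test cannot give a p below 0.333, the value at Meg3, and it gave 1 at H19 and Gnas. When the mean of all regions of like level was subtracted from each library, the differences were -0.330 points at H19, 0.213 points at Meg3 and 0.803 points at Gnas.

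The comparison of AOM/DSS plus curcumin with AOM/DSS asks what curcumin added under the same treatment. It shares the AOM/DSS libraries with the comparison above, so opposite differences in the 2 are not independent. In edgeR 0 of 60 members were called, as were 0 of all tested regions (0%). With an unadjusted p below 0.05 there were 5 members, against 5.25% of all tested regions: 5 were higher with curcumin and 0 lower, against 2.56% and 2.69%. The quasi-binomial model and limma called 0 members, and Fisher's exact test on the summed counts 4, again without a share of all tested regions to set it against. The groups did not overlap in 12 members higher and 4 lower with curcumin, against 18.9% and 16% of all tested regions. The median difference over members was 0.468 points, against 0.111 points over all. Between 30 and 70%, 6 members were higher and 3 lower without overlap, against 21.9% and 14.3% of all tested regions at that level, and the median difference was 0.581 points against 1.15 points. The number with an unadjusted p below 0.05 fell without curcumin replicate 0. The share of all tested regions in that fit is not given here.

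The largest member difference between groups lay in the first Gnas stretch. The region from 174111513 to 174111652, with 13 CpGs, had 36 methylated of 56 calls (64.3%, 95% Wilson interval 51.2 to 75.5) and 19 of 39 (48.7%, 33.9 to 63.8) in AOM/DSS plus curcumin. It had 13 of 67 calls (19.4%, 11.7 to 30.4) and 9 of 42 (21.4%, 11.7 to 35.9) in AOM/DSS. Control had 24 of 78 (30.8%, 21.6 to 41.7) and 12 of 48 (25.0%, 14.9 to 38.8). The intervals cover counting error only, and the calls come to 3.00 to 6.00 per CpG. The curcumin libraries lay above the other 4, by 36.1 points over AOM/DSS (edgeR adjusted p = 0.627) and by 28.6 points over control (edgeR adjusted p = 1).

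The regions beside it did not repeat that size of difference. The one 314 bases on, from 174111966, averaged 43.3% ± 5.43 in AOM/DSS plus curcumin, 43.2% ± 0.993 in AOM/DSS, and 50.15% ± 2.91 in the control group (SD, n = 2 each). The one 744 bases before, from 174110667, stood at 32.4% and 43.5% in AOM/DSS plus curcumin, 37.5% and 8.22% in AOM/DSS, and 31.7% and 23.8% in control. The region before that, from 174110149 with 30 CpGs, stood at 26.7% and 30.1% with curcumin, while AOM/DSS stood at 19.2% and 14.7% (edgeR adjusted p = 0.928). Control, at 33.5% and 17.0%, enclosed the curcumin values there. Of the 11 regions of the stretch, 9 were higher with curcumin than in AOM/DSS, 4 of them without overlap. Of all 179922 tested regions, 93387 were higher in that comparison, and 18.9% were higher without overlap. The mean of the stretch was 7.66 points higher, and 4.82 points higher without the region from 174111513 (exact two-sided permutation p = 0.333 in both, the smallest it allows).

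In the second Gnas stretch the corresponding difference was 0.0897 points, in the third -1.30 points and in the fourth 0.111 points, with overlapping groups. The fifth, the region from 174159691, differed in the other direction without overlap, at 27.5% and 23.2% with curcumin, while AOM/DSS stood at 36.2% and 41.1% (-13.3 points, edgeR adjusted p = 0.949). The second stretch held the region with the third smallest p at Gnas, from 174125970 to 174126194 with 16 CpGs, at 67.9% and 43.7% with curcumin, while AOM/DSS stood at 31.1% and 46.8% (edgeR adjusted p = 0.940). That difference of 16.9 points was 4.77 points without curcumin replicate 0. As a locus, Gnas stood at 34.4% ± 2.71 with curcumin and 32.05% ± 0.117 in AOM/DSS (SD, n = 2 each), 2.38 points apart without overlap (exact two-sided permutation p = 0.333). That difference was 0.463 points without curcumin replicate 0, and 0.392 points with calls pooled over the locus.

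At Meg3 2 of the 3 regions of smallest p were also among those of AOM/DSS against control. The region from 110767461 stood at 93.0% and 90% with curcumin, on both sides of the control values and 11.3 points above AOM/DSS (edgeR adjusted p = 0.928). The region from 110789462 stood at 72.7% and 72.8% with curcumin, 13.9 points above AOM/DSS (edgeR adjusted p = 0.931) and below both control libraries. The region from 110784400 differed by -8.35 points (edgeR adjusted p = 0.963), or 1.57 points without curcumin replicate 1. The locus mean was 67.1% ± 0.124 with curcumin and 65.9% ± 0.938 in AOM/DSS (SD, n = 2 each). They lay 1.23 points apart without overlap (exact two-sided permutation p = 0.333), and 0.100 points after subtracting regions of like level.

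At H19 the region from 149766818 to 149766998, with 8 CpGs, stood at 54.9% and 50.3% with curcumin, while AOM/DSS stood at 39.2% and 34.7%, a difference of 15.7 points (edgeR adjusted p = 0.936). The region beside it, from 149766621, differed by -14.9 points (edgeR adjusted p = 0.956), and the next, from 149766405, by -1.68 points. The region from 149766034 differed by -11.2 points with overlapping groups (edgeR adjusted p = 0.957), or -1.55 points without curcumin replicate 0 and -20.9 points without curcumin replicate 1. The H19 mean was 50.9% ± 1.69 with curcumin and 51.2% ± 0.291 in AOM/DSS (SD, n = 2 each), -0.302 points apart with overlapping groups. It was 1.17 points with calls pooled over the locus.

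The comparison of AOM/DSS plus curcumin with control sets mice given all 3 agents against untreated ones. In edgeR 0 of 60 members were called, as were 0 of all tested regions (0%). With an unadjusted p below 0.05 there were 3 members, against 4.17% of all tested regions: 2 were higher with curcumin and 1 lower, against 1.83% and 2.34%. The quasi-binomial model and limma called 0, and Fisher's exact test on the summed counts 2, again without a share of all tested regions to set it against. The groups did not overlap in 14 members higher and 12 lower, against 14.3% and 17.7% of all tested regions. The median difference over members was -0.315 points, against -0.168 points over all. Between 30 and 70%, 6 members were higher and 6 lower without overlap, against 12.7% and 19.1% of all tested regions at that level, and the median difference was -1.52 points against -0.990 points. The number with an unadjusted p below 0.05 in edgeR fell without curcumin replicate 0. The share of all tested regions in that fit is not given here.

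Besides the Gnas region from 174111513, the higher member was the Gnas region from 174124052 to 174124448 with 37 CpGs. It stood at 39.2% and 33.0% with curcumin, against 23.5% and 25.3% in control (edgeR adjusted p = 1). The Gnas region from 174152432 to 174152701, with 13 CpGs, stood at 50% and 40% with curcumin, against 36.4% and 24.1% in control (edgeR adjusted p = 1), 14.8 points apart, or 8.55 points without control replicate 1. The lower member was the Meg3 region from 110768774 to 110769059 with 6 CpGs, at 83.6% and 86.9% with curcumin, against 94.7% and 93.9% in control (edgeR adjusted p = 1). AOM/DSS stood there at 93.8% and 83.4%, on both sides of the curcumin values. The remaining Meg3 regions with the smallest p, from 110780190 and from 110778404, differed by 10.2 and 7.64 points (edgeR adjusted p = 1 for both), or 1.5 points without curcumin replicate 0 and 0.733 points without control replicate 1.

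H19 had no region with an unadjusted p below 0.05 in edgeR. The differences were 11.9 points from 149766818, -12.1 points from 149766621 and -7.09 points from 149762691 (edgeR adjusted p = 1 for each). The last was -2.23 points without control replicate 0. The difference from 149766621 was 6.19 points without control replicate 0, whose level of 61.1% lay far above the 24.5% of control replicate 1, at 31 to 70 calls per library. The locus means differed by -2.60 points at H19, -0.300 points at Meg3 and 2.23 points at Gnas, with overlapping groups at all 3 (exact two-sided permutation p = 1, 0.667 and 0.667). At H19 the difference was 1.82 points without control replicate 0. At Gnas it was 0.313 points without curcumin replicate 0, 4.15 points without curcumin replicate 1, 3.78 points without control replicate 0, 0.678 points without control replicate 1 and 0.567 points with pooled calls.

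The 14 members without a value in every library had 3 to 9 CpGs, and 2 of them, both at Meg3, had no value in any library. At Meg3 the regions from 110767942 and 110770650, with values in 5 libraries, ran from 88.2% to 97.3% and from 81.8% to 96.2%. The second of these lies past the tested region at 26.3%, so the level was high again there. The region from 110766485 stood at 80.8% in the single library with a value. Those from 110781005, 110783636 and 110789316 ran from 65.2% to 78.8%, from 50% to 75%, and at 65.6% in a single library. At Gnas the region from 174124993, with values in 5 libraries, ran from 12.1% to 32.8%. The region from 174151436 ran from 3.70% to 28.6% in 4 libraries. Those from 174154239, 174155874 and 174156584 stood at 0% to 2.38% where they had a value, at 20 to 42 calls. The 8 values of 0% among them allow levels of up to 7.14% to 15%. The region from 174158938 ran from 60% to 69.7% in 3 libraries.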

How the data were processed

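DNA methylation was measured in 6 libraries of mouse colon epithelium. Per the labels' protocols, DNA was captured with an Agilent kit for mouse methylation sequencing (SureSelectXT Mouse Methyl-Seq). The submitters' processing notes name build mm9 and the tools Bismark 0.15.0, ChIPseeker 1.10.3 and R 3.4.0, with no roles. The deposited files hold counts per region: its CpGs, its methylation calls and how many of these were methylated. The sources used here do not state how regions were drawn, how duplicate reads were treated or whether positions count from 0 or 1.

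Regions with at least 10 calls in all 6 libraries were tested, and the deposited values start at 20 calls. EdgeR 4.0.16 in R 4.3.3 was fitted to methylated and unmethylated counts of all 179922 such regions, with a coefficient per library for coverage and per group for methylation, and p-values were adjusted over all of them by Benjamini-Hochberg. Regions with an adjusted p below 0.05 and group means at least 10 points apart were called. Locus means weight regions alike and were tested by exact permutation over libraries. Group values are mean ± SD of 2 libraries. The fits were tested on simulated data. Alternatives were a quasi-binomial model, limma 3.58.1, Fisher's exact test (scipy 1.17.1, Python 3.11.15), at least 50 calls, other minimum differences, only 4 libraries, a replicate block, each library left out, pooled calls, regions at 20 to 80%, and levels relative to all regions of like level.

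The members and lists were chosen with earlier results of these data known. Per locus and comparison the text names up to 3 regions of smallest p. Per locus it names the 3 regions at 30 to 70% with the most CpGs and the tested regions of highest and lowest level. With no mm9 annotation at hand, other imprinted genes were not located.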

Additional observations from a re-analysis of the deposited data

How the results depend on the processing

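The replicate differences of 2 groups correlated at 0.00754, 0.0121 and 0.0548 over 179922 regions, so libraries of the same number shared little over all regions. These correlations do not settle whether such libraries share a preparation. With the replicate block, 0 members were called in each comparison and 4, 6 and 3 had an unadjusted p under 0.05, against 4, 5 and 3 without it (AOM/DSS against control, curcumin against AOM/DSS, curcumin against control). Calls stayed at 0 under all alternatives but Fisher's exact test on calls summed per group, with 4, 4 and 2 calls and 15, 19 and 11 members at an unadjusted p under 0.05. For no alternative is the share of all tested regions at that level given here, so no such count is read as an excess. Limma gave 2 at that level in the first and in the second comparison, and the quasi-binomial model 5 in the third. Leaving out 1 library gave 4 to 7, 2 to 6 and 0 to 4. For AOM/DSS against control, the locus mean difference reversed to 0.213 points at Meg3 with regions of like level subtracted, and at Gnas to 0.175 points with pooled calls, 0.481 with at least 50 calls and 0.803 with regions of like level subtracted. Without 1 library it ran from -6.72 to 2.12 points at H19 and from -1.70 to 1.40 at Gnas. For curcumin against AOM/DSS at H19 it reversed to 1.17 points with pooled calls and 1.52 with at least 50 calls, and ran from -1.50 to 0.891 without 1 library. For curcumin against control it ran from -7.02 to 1.82 points at H19 and from -0.653 to 0.0522 at Meg3 without 1 library, and at Meg3 it reversed to 0.0113 points with pooled calls, 0.164 with regions at 20 to 80% and 0.314 with regions of like level subtracted. The causes were not tested. The other 58 locus values kept their direction. Of the values for named regions, 304 kept their direction and stayed above an adjusted p of 0.05, 11 came under it, all with Fisher's exact test, and 4 reversed. The reversed ones, with the range without 1 library, were the H19 region from 149766034 (-3.17 to 18.5 points) and the Gnas region from 174110149 (-16.5 to 0.00926) in AOM/DSS against control, the Meg3 region from 110784400 (-18.3 to 1.57) in curcumin against AOM/DSS and the H19 region from 149766621 (-30.4 to 6.19) in curcumin against control. The share of members at 30 to 70% was 61.2% with at least 50 calls and 53.3% from control alone, against 58.3%. Rasgrf1 gives no value under any alternative. Members had a median of 12.3 calls per CpG, against 14.8 over all tested regions. Libraries of 1 group differed by a median of 6.81 points at members between 30 and 70%, which limits what 2 libraries per group can resolve.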

Other observations

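Libraries of the same group were farther apart at these loci than the number of calls alone gives. Over the 35 members at 30 to 70%, the squared difference between replicates averaged 3.76 times the variance of independent calls, against 2.08 times over all 36730 tested regions at that level. With at least 10 CpGs it averaged 4.72 times over 22 members and 3.20 times over 5912 tested regions. Per locus the value was 4.15 at H19, 2.65 at Meg3 and 4.06 at Gnas. If all CpGs of a region were read together and shared one state per read, the variance would be larger by the number of CpGs, and against that the average was 0.296 for members and 0.381 for all tested regions at that level. The order turned with at least 10 CpGs, at 0.253 for members and 0.234 for all tested regions at that level. The median absolute replicate difference was 6.81 points for members and 6.57 points for all, and the largest among members, 36.6 points, was in control at the H19 region from 149766621.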
